A study of Rattus norvegicus with 9 samples.

Results

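Finerenone, a non-steroidal blocker of the mineralocorticoid receptor (MR), was compared with spironolactone, a steroidal one, in kidney nuclei of rats with mineralocorticoid hypertension. The nuclei were chosen by the treatment recorded for them in the snATAC-Seq metadata. Of 53298 nuclei in 9 libraries, 7949 came from the 2 Finerenone libraries and 17956 from the 2 Spironolactone libraries, 25905 in all. All 4 libraries came from whole kidneys of male Sprague-Dawley rats with an age label of 6 weeks. These rats had lost a kidney, drank salt water and received weekly subcutaneous DOCA (deoxycorticosterone acetate, a mineralocorticoid) at 50 mg/kg. Finerenone was given at 10 mg/kg/day and spironolactone at 50 mg/kg/day, so the doses differed and every difference given here is between these drugs at these doses. Rats with DOCA, salt and uninephrectomy without a drug (DOCA) and sham-operated rats (Control) were used as references, with 2 libraries each. A single Amiloride library (20 mg/kg/day in DOCA rats) also entered the fits.

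The MR is a nuclear receptor that binds aldosterone, deoxycorticosterone and glucocorticoids and then acts on transcription. In the distal convoluted tubule, connecting tubule and collecting duct it controls sodium uptake. It is also present in podocytes, endothelium, fibroblasts and macrophages, where its activation has been tied to proteinuria, inflammation and fibrosis. Spironolactone resembles steroid hormones and also binds androgen and progesterone receptors, whereas finerenone was designed as a bulky, selective antagonist.

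In single-nucleus ATAC sequencing a transposase cuts open chromatin and each nucleus carries a barcode. Each drug had 1 library of a chromatin-only kit (scATAC) and 1 of a kit that reads RNA as well (Multiome). The Finerenone libraries held 1817 (scATAC) and 6132 (Multiome) nuclei, and the Spironolactone libraries 2721 (scATAC) and 15235 (Multiome). Both drugs' libraries shared 12 barcodes under the scATAC kit and 181 under the Multiome kit, and leakage between libraries was not tested. The codes of both Spironolactone libraries share a stem, as do those of both DOCA libraries and those of the Control Multiome and Amiloride libraries. The Control scATAC code shares only the first part of its stem with these last codes. The Finerenone codes share none. Whether libraries with a common stem were made from the same kidney is not known. The p values rest only on the spread between libraries, with variances partly borrowed across the values tested together.

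The 12 cell type labels were those of the authors and were grouped in 3 compartments. Proximal tubule (PT) held the convoluted (PCT), straight (PST) and injured (iPT) labels. The distal compartment held loop of Henle (LOH), distal convoluted tubule (DCT), principal cells (PC) and intercalated cells (IC). The third, glomerulus, vessels and interstitium (GVI), held podocytes (Podo), endothelium (Endo), fibroblasts, myofibroblasts (MyoFib) and macrophages (Mac). No accessibility per gene was analysed here, so the labels could not be checked against marker genes. On the UMAP, the map on which nuclei with like chromatin lie near each other, 90.8% of the 15 nearest neighbours of a nucleus carried its own label, from 80.1% for MyoFib to 96.8% for Podo.

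The Finerenone libraries stood farther apart from each other than the Spironolactone libraries did. The median absolute difference in log2 odds (the log2 of a label's share over the remainder of its compartment) between the kits was 0.862 over the 12 labels for Finerenone and 0.421 for Spironolactone. It was 0.182 for Control, whose codes share the first part of a stem, and 0.321 for DOCA, whose codes also share a stem. Between the drugs it was 0.550 among scATAC and 0.360 among Multiome libraries, so by this measure the drugs were nearer to each other than the 2 Finerenone libraries were. In the PT compartment 5.01 percentage points of nuclei would have to change label to turn the Finerenone scATAC library into the DOCA scATAC library, and 24.7 points to turn it into the Control scATAC library. For the Finerenone Multiome library the order was turned around, with 30.2 points to DOCA and 6.35 points to Control. The Finerenone libraries kept this order in the distal compartment, where the scATAC library lay 11.3 points from DOCA and 12.6 from Control and the Multiome library 24.8 and 16.9, and in GVI (16.7 and 25.4 for scATAC, 36.1 and 3.94 for Multiome). In PT both Spironolactone libraries were nearer to Control, at 7.74 points (scATAC) and 8.82 points (Multiome), than to DOCA, at 20.3 and 30.1 points. Elsewhere they were mixed, with the distance to DOCA given first. The scATAC library was nearer to DOCA in the distal compartment (11.1 against 13.9 points) and to Control in GVI (21.7 against 15.4), and the Multiome library was nearer to Control in the distal compartment (14.7 against 6.58) and to DOCA in GVI (17.1 against 22.3). Each value below is therefore given for every library.

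Podocytes, the cells that form the slit diaphragm of the glomerular filter, made up a larger share of GVI nuclei under finerenone than under spironolactone in both kits. They were 10.4% (23 of 221 nuclei) and 16.8% (162 of 965) in the Finerenone scATAC and Multiome libraries. In the Spironolactone libraries they were 3.37% (10 of 297) and 3.56% (56 of 1575). Both Finerenone values lay above both Spironolactone values, by 3.09-fold with scATAC and 4.72-fold with Multiome. The Spironolactone shares lay beside those of DOCA (2.90% and 3.59%), and the Finerenone Multiome share lay beside those of Control (18.5% and 17.4%).

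A limma fit to the log2 odds of the 9 libraries took group and kit into account. Its variances are partly borrowed across the 15 features, which gave 4.09 of the 7.09 degrees of freedom. In it podocytes were higher in Finerenone by 2.07 ± 0.35 (SE, 2 libraries a drug, 95% interval 1.24 to 2.90, adjusted p = 0.00894). They were the only 1 of 15 features tested (12 labels and 3 compartments) to pass an adjusted p of 0.05, which is 6.67%. The higher podocyte share was already known from earlier results of these data. The p value is therefore not that of an open test, and the adjustment over 15 features does not correct for this. Within the kits the differences were 1.70 (0.62 to 2.78) and 2.44 (1.99 to 2.90), with intervals for counting error only. A share of GVI nuclei can move through its other members, so podocytes were also counted per 100 endothelial nuclei. That ratio was 47.9 (scATAC) and 38.6 (Multiome) in Finerenone and 8.13 and 9.11 in Spironolactone, against 47.5 and 37.4 in Control and 13.0 and 13.4 in DOCA. Of all nuclei, podocytes were 1.27% and 2.64% in Finerenone and 0.368% in each Spironolactone library. Fewer podocytes and podocytes less easily recovered as nuclei cannot be told apart in these counts. The call rested on 3 of the 4 drug libraries. The adjusted p was 0.0681 without the Spironolactone scATAC library, 0.145 without the Spironolactone Multiome library and 0.0740 without the Finerenone Multiome library, while the difference kept its direction (1.71 to 2.43). It was 0.0670 with arcsine square roots of the shares in place of log2 odds.

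**Figure D1:**
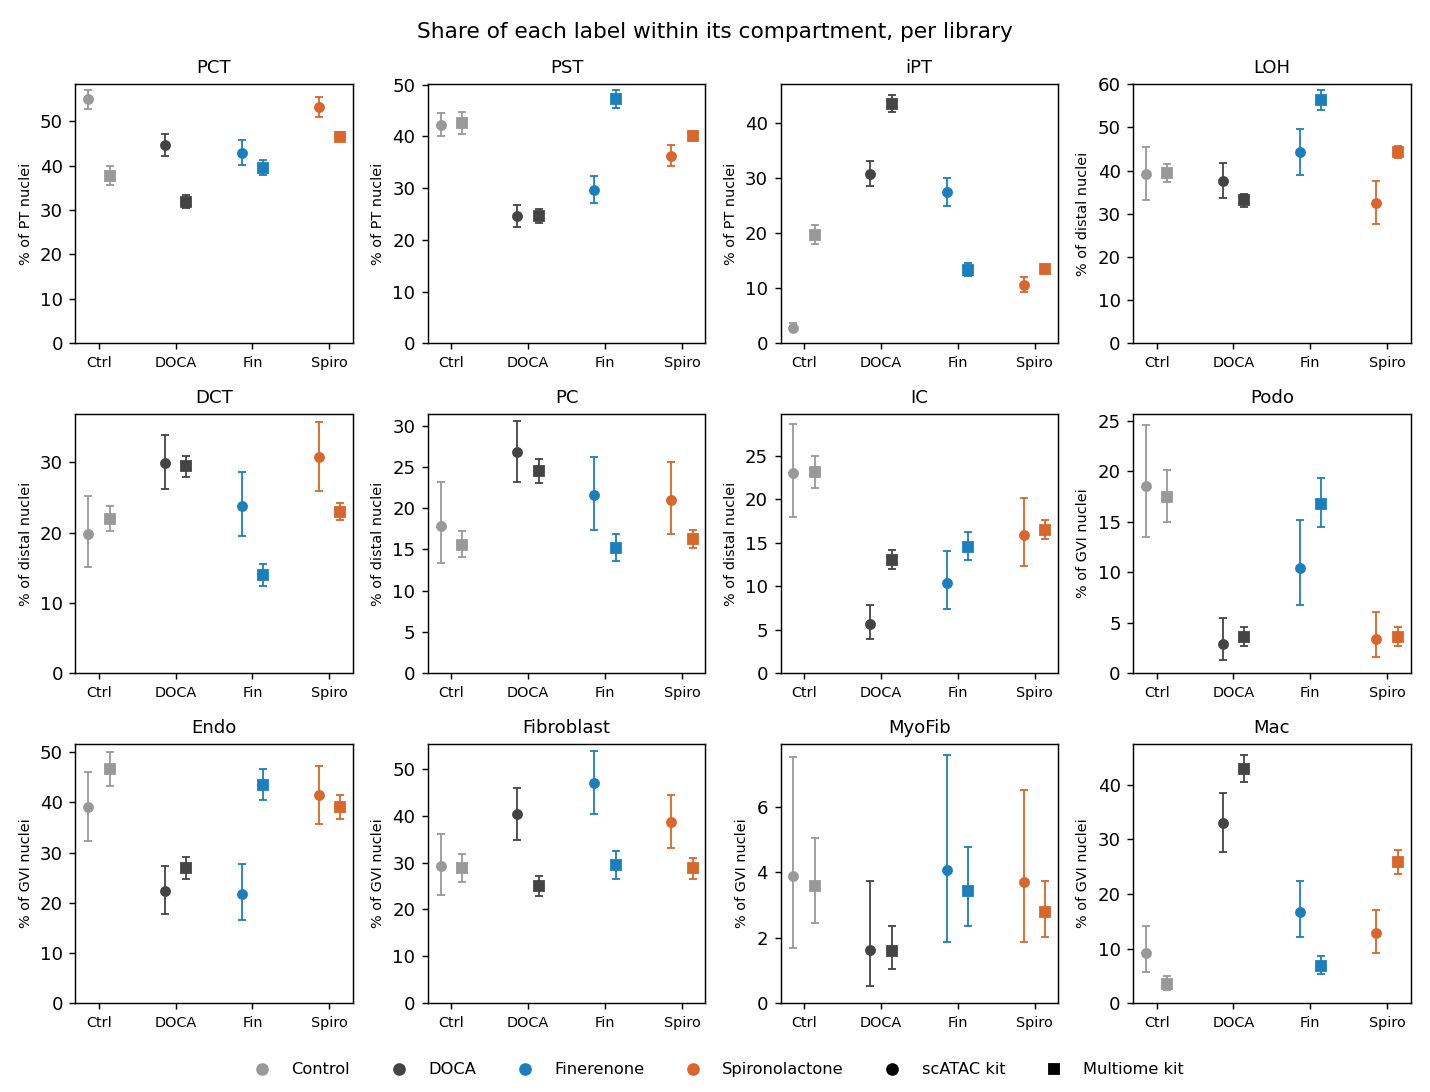
Share of each label among the nuclei of its compartment (y axes, %), for the Control, DOCA, Finerenone and Spironolactone groups, with circles for scATAC and squares for Multiome libraries and bars for exact 95% counting intervals. The podocyte panel shows both Finerenone libraries (10.4% and 16.8%) above both Spironolactone libraries (3.37% and 3.56%), and the iPT and Endo panels show Finerenone libraries that lie far from each other.

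The PT labels gave different pictures in the 2 kits. The iPT label marks proximal tubule nuclei with accessible injury genes by the authors' naming. It took 27.5% of PT nuclei in the Finerenone scATAC library and 10.6% in the Spironolactone scATAC library, but 13.4% and 13.5% in the Multiome libraries. The scATAC libraries thus differed by 1.68 log2 odds (1.41 to 1.95) and the Multiome libraries by -0.01 (-0.18 to 0.16). Over both kits the difference was 0.83 (95% interval -1.24 to 2.90, adjusted p = 0.559), an interval that holds both a large excess and a deficit under finerenone. In the references iPT took 30.9% and 43.5% of PT nuclei in DOCA and 2.86% and 19.7% in Control. All 4 drug libraries therefore lay below the DOCA library of their kit, the Finerenone scATAC library by the least. Against Control the kits differed. Both scATAC drug libraries lay above the Control scATAC library (2.86%), and both Multiome drug libraries lay below the Control Multiome library (19.7%).

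PST, the last segment of the proximal tubule, differed in opposite directions in the 2 kits. It was 29.6% of PT nuclei in Finerenone against 36.3% in Spironolactone with the scATAC kit, and 47.1% against 40.0% with the Multiome kit. The counting intervals lay below 0 for scATAC (-0.43, -0.65 to -0.22) and above 0 for Multiome (0.42, 0.30 to 0.53). The fitted difference of -0.01 (-0.91 to 0.90, adjusted p = 0.984) is the mean of these. There were 92.9 iPT nuclei per 100 PST nuclei in the Finerenone scATAC library and 29.2 in the Spironolactone scATAC library, against 28.4 and 33.6 in the Multiome libraries.

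PCT, the first and most endocytic segment, made up less of the PT nuclei under finerenone in both kits. The shares were 42.9% and 39.5% in Finerenone and 53.1% and 46.5% in Spironolactone, without overlap between the groups. The fitted difference was -0.51 (-1.33 to 0.32, adjusted p = 0.559) and did not pass the test. The label that gained in its place was iPT with the scATAC kit and PST with the Multiome kit.

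In the distal compartment, LOH, the segment that builds the medullary salt gradient, was 44.3% and 56.3% of nuclei in Finerenone and 32.4% and 44.3% in Spironolactone. Each kit gave a higher value for Finerenone, by 0.73 and 0.70 log2 odds, while the Finerenone scATAC and the Spironolactone Multiome library had about the same share. DCT, which reabsorbs sodium chloride through the thiazide-sensitive transporter, was 23.8% and 13.9% in Finerenone and 30.7% and 23.0% in Spironolactone. IC, which handle acid and base, were 10.4% and 14.5% against 15.9% and 16.5%. None of the 3 passed the test over libraries. The intervals were -0.19 to 1.62 for LOH, -1.60 to 0.22 for DCT and -1.43 to 0.51 for IC. There were 186 and 404 LOH nuclei per 100 DCT nuclei in Finerenone, and 105 and 193 in Spironolactone.

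PC, the cells in which the MR controls the epithelial sodium channel, gave the closest values of the compartment. They were 21.6% and 15.2% in Finerenone and 20.9% and 16.3% in Spironolactone. The difference was -0.03 (-0.78 to 0.72, adjusted p = 0.984), and the interval leaves room for a decrease of up to 0.78 or an increase of up to 0.72 log2 odds.

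Macrophages, which are recruited to the interstitium in DOCA-salt kidneys, differed by kit. They were 16.7% (37 nuclei) against 12.8% (38 nuclei) of GVI nuclei in the scATAC libraries of Finerenone and Spironolactone. In the Multiome libraries they were 6.84% (66 nuclei) against 25.8% (407 nuclei), a difference of -2.24 log2 odds (-2.63 to -1.84). Over both kits the difference was -0.89 (-2.57 to 0.79, adjusted p = 0.559). DOCA libraries held 32.9% and 42.9% and Control libraries 9.27% and 3.58%. The 4 drug libraries lay below DOCA of the same kit and above Control of the same kit.

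Endothelium was 21.7% and 43.5% of GVI nuclei in Finerenone and 41.4% and 39.0% in Spironolactone. It was lower in Finerenone with the scATAC kit (-1.34, -1.91 to -0.77) and higher with the Multiome kit (0.27, 0.03 to 0.50). Fibroblasts were 47.1% and 29.4% against 38.7% and 28.8%, and MyoFib, with 9 to 44 nuclei a library, 4.07% and 3.42% against 3.70% and 2.79%. The counting intervals of fibroblasts and MyoFib held 0 in both kits. In all, 7 of 12 labels differed in the same direction in both kits. Both counting intervals were above 0 for 2 labels (LOH and Podo) and below 0 for 3 (PCT, DCT and IC). The groups did not overlap for 3 of 12 labels (25.0%), which were PCT, IC and Podo. The compartments themselves did not pass the test, with PT at 68.2% and 53.0% of nuclei in Finerenone and 75.9% and 59.2% in Spironolactone (-0.46, -1.56 to 0.64).

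**Figure D2:**
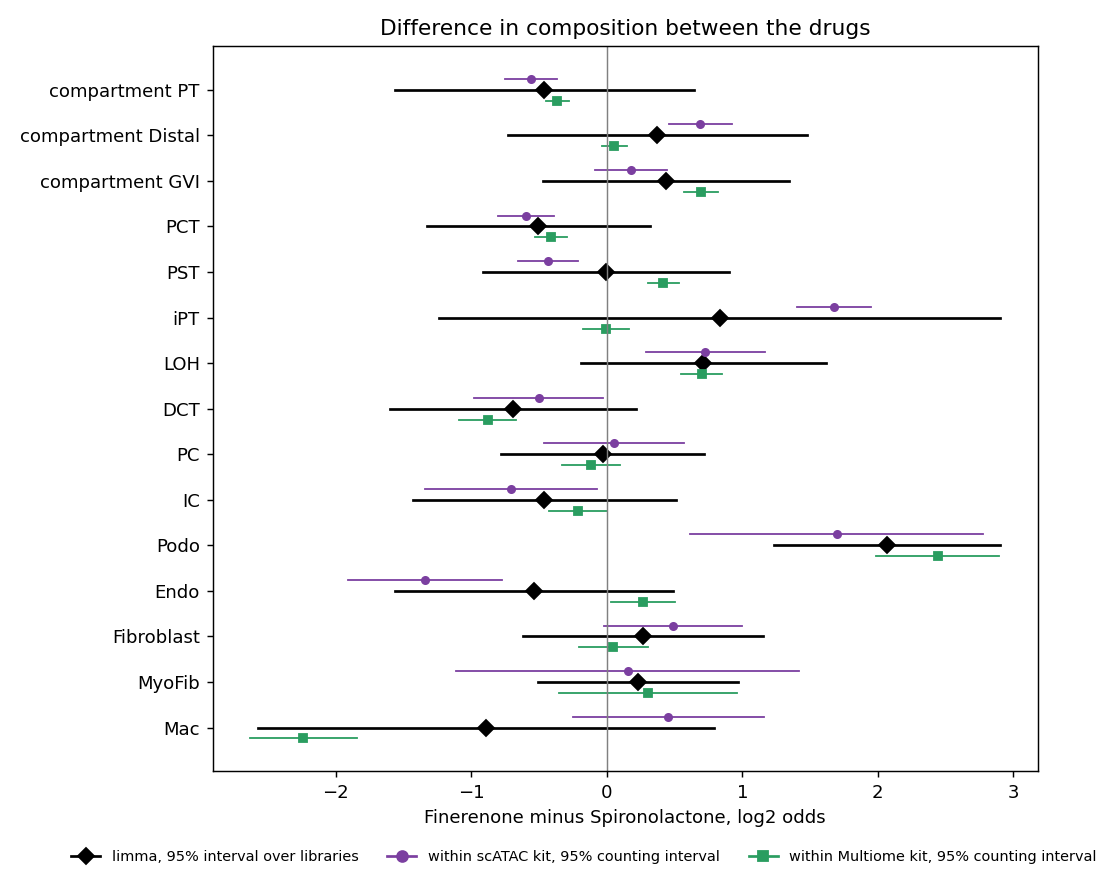
Difference of Finerenone minus Spironolactone in log2 odds (x axis) for the 3 compartments among all nuclei and the 12 labels within their compartment (y axis). Diamonds and black lines are the limma estimates with 95% intervals over libraries, and circles (scATAC) and squares (Multiome) are the values within a kit with counting intervals. Of the black intervals, that of podocytes (1.24 to 2.90) lies off 0, and PST and Endo have kit values on opposite sides of 0.

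The placement of the nuclei of each label on the UMAP was compared next. Median coordinates were fitted for 11 labels on 2 axes, without MyoFib, which had under 10 nuclei in some libraries. None of 22 coordinates passed limma's test (0%, lowest adjusted p = 0.971), and 0 had an unadjusted p below 0.05. The DOCA scATAC library was left out of the podocyte fits with 9 nuclei. The coordinates followed the authors' batch correction and have no unit, so they describe the map and not accessibility.

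**Figure D3:**
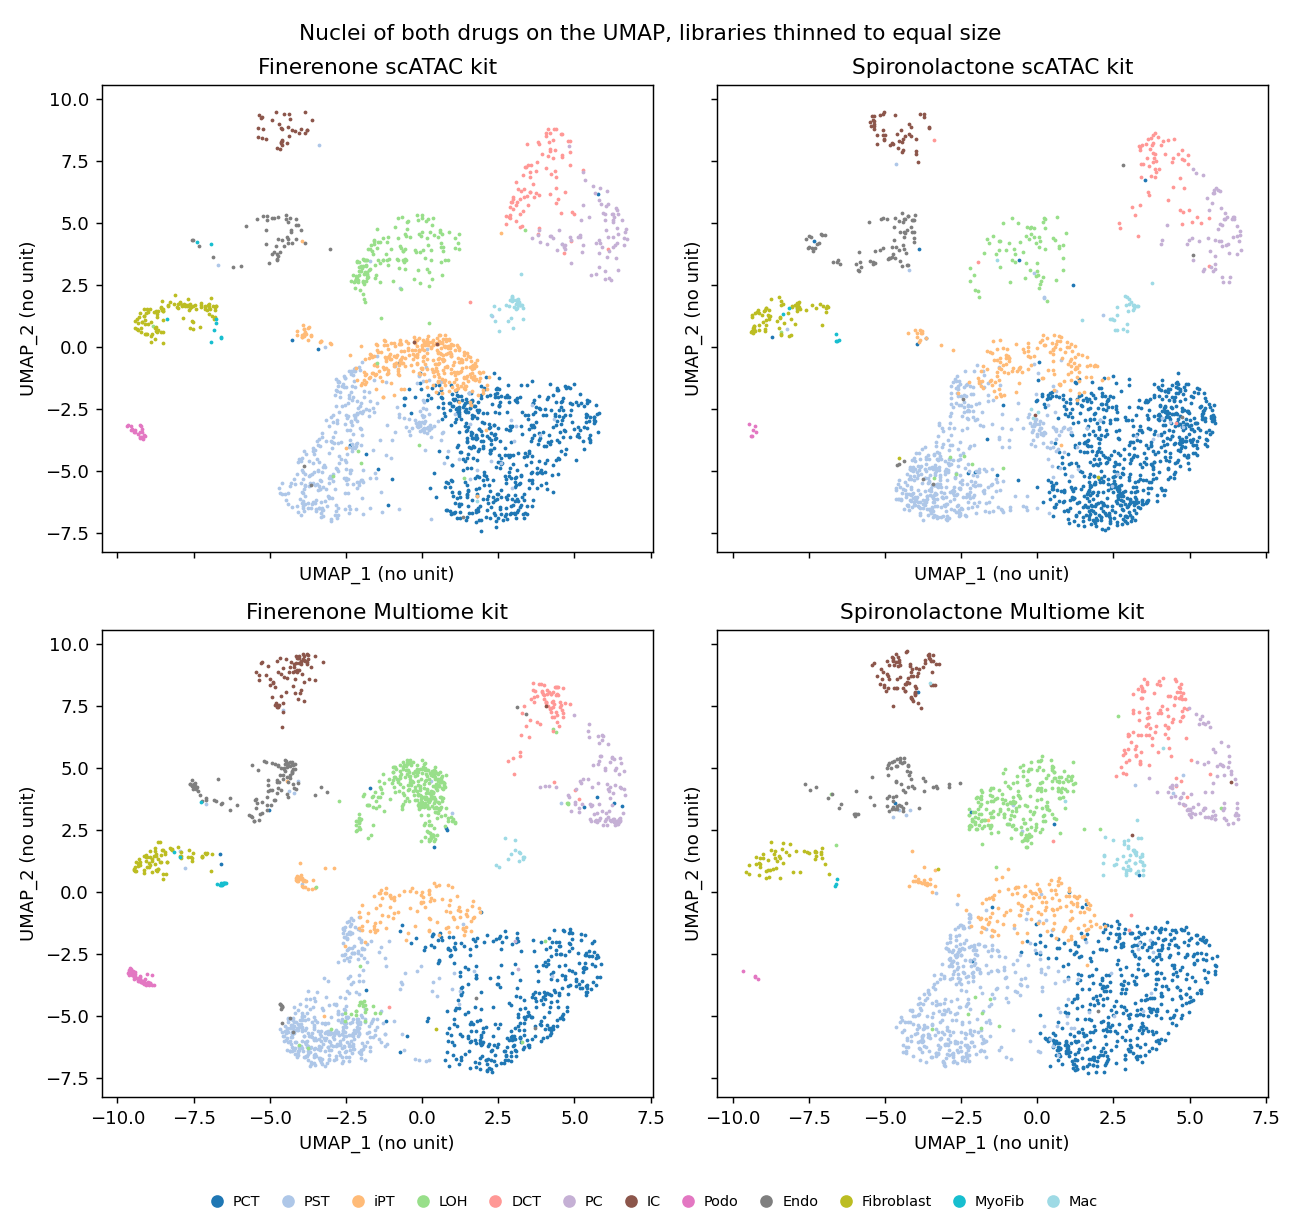
Nuclei of both Finerenone and both Spironolactone libraries on the UMAP (both axes without unit), each library thinned to 1817 nuclei and coloured by label. The podocyte island near -9.3 on UMAP_1 is fuller in the Finerenone panels, and PST nuclei of the Finerenone Multiome library crowd the lower end of their arc, where their median UMAP_2 was -5.48.

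Within the kits the direction of the displacement between the drugs varied by label. The displacement from the Spironolactone to the Finerenone median pointed over 90 degrees apart between the kits for 8 of 11 labels. It was over 150 degrees apart for 4 of them, PST (174 degrees), DCT (174), LOH (153) and iPT (150). Under 30 degrees lay Endo (18.0) and Mac (14.7). Their displacements were short, at 0.326 (scATAC) and 0.0697 (Multiome) UMAP units for Endo and 0.279 and 0.0675 for Mac. So were those of PC (0.181 and 0.0683) and IC (0.142 and 0.104), which were among the labels over 90 degrees. The direction of such short displacements was not tested, and no conclusion is drawn from their angles. For PST the displacement was 1.19 UMAP units long with the scATAC kit and 0.98 with the Multiome kit, and for DCT 1.18 and 0.838. Finerenone medians lay farther apart between the kits than Spironolactone medians for 9 of 11 labels.

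PST showed this most plainly. The median UMAP_2 was -3.85 and -5.48 in the Finerenone libraries and -4.99 and -4.57 in the Spironolactone libraries. DOCA lay at -3.76 and -3.10 and Control at -5.36 and -5.46. The Finerenone scATAC library thus lay beside DOCA and the Finerenone Multiome library beside Control, with both Spironolactone libraries between them. PST nuclei were also divided into 3 sub-regions of the map without use of the groups. The lowest on UMAP_2 held 44.1% and 75.0% of PST nuclei in Finerenone, 63.8% and 50.3% in Spironolactone, 45.9% and 32.4% in DOCA and 71.3% and 70.3% in Control. Of the neighbours of PST nuclei, 4.11% and 1.15% were iPT in Finerenone, 2.37% and 1.92% in Spironolactone, 3.38% and 6.92% in DOCA and 0.21% and 0.77% in Control.

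In LOH and DCT the Finerenone libraries were likewise split between DOCA and Control, but the Spironolactone libraries were split too. The LOH sub-region at the left of its island held 57.0% and 18.5% of LOH nuclei in Finerenone and 35.3% and 48.6% in Spironolactone, against 64.0% and 55.3% in DOCA and 23.8% and 15.2% in Control. The upper DCT sub-region held 45.9% and 78.3% of DCT nuclei in Finerenone and 69.1% and 54.2% in Spironolactone, against 44.7% and 58.1% in DOCA and 58.8% and 76.4% in Control. In both labels the Finerenone scATAC and the Spironolactone Multiome library were the nearer to DOCA and the other two nearer to Control. Counted over the 11 labels, medians lay nearer to DOCA than to Control of the same kit for 8 labels in the Finerenone scATAC library and 4 in the Finerenone Multiome library. The counts were 3 and 8 in the Spironolactone libraries.

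Of the iPT sub-regions, the leftmost was centred near -3.84 on UMAP_1 and 0.73 on UMAP_2. It held 7.62% and 21.8% of iPT nuclei in Finerenone and 10.0% and 11.8% in Spironolactone, 6.71% and 6.20% in DOCA and 22.8% and 57.6% in Control. Thus the like iPT shares of the Multiome libraries covered an unequal placement. This sub-region held 95 of 435 Finerenone and 143 of 1214 Spironolactone nuclei there. Over all labels, none of 36 sub-regions passed limma's test (0%, lowest adjusted p = 0.460). An unadjusted p below 0.05 was found for 2, both of Mac.

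**Figure D4:**
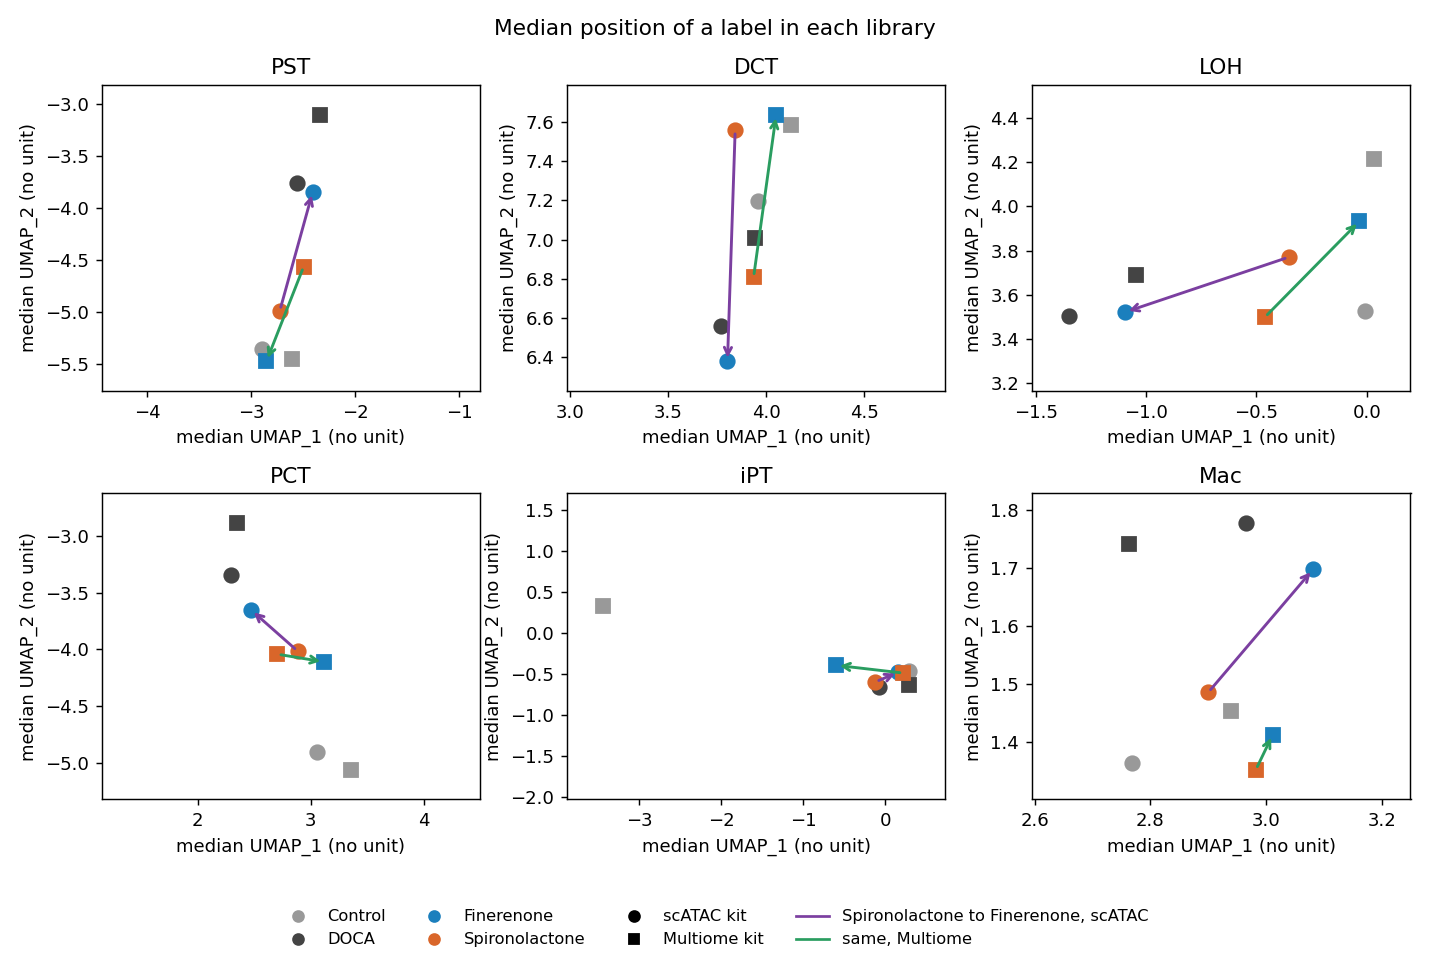
Median UMAP_1 (x axes) and UMAP_2 (y axes), without unit, of 6 labels in the Control, DOCA, Finerenone and Spironolactone libraries, with circles for scATAC and squares for Multiome. Arrows run from Spironolactone to Finerenone within a kit and point in nearly opposite directions for PST and DCT (174 degrees apart). For Mac they lie 14.7 degrees apart, but the Multiome arrow is only 0.0675 UMAP units long.

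The mixing of both drugs' nuclei on the map was also measured. With both libraries of a kit thinned to equal nuclei of a label, a nucleus had a median over labels of 51.6% (scATAC, 9 labels) and 54.8% (Multiome, 12 labels) of its neighbours from its own library, where full mixing gives about 50%. The largest excess over full mixing was 5.50 percentage points with the scATAC kit (DCT) and 13.0 with the Multiome kit (LOH). With the Multiome kit all 12 labels exceeded full mixing, by 2.06 to 13.0 points. The median excess between the drugs was 1.80 points (scATAC) and 4.88 points (Multiome). It was 4.43 and 10.8 between Control and DOCA, 2.39 and 4.99 between Control and Finerenone, 1.09 and 7.23 between Control and Spironolactone, -0.36 and 6.42 between DOCA and Finerenone, and 2.35 and 4.25 between DOCA and Spironolactone. The drugs were thus neither the best nor the least mixed pair in either kit. With 1 library per drug and kit, these values have no test.

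The neighbours of macrophages differed between the drugs. Of the 15 nearest neighbours of a Mac nucleus, 5.41% and 2.53% carried another label in Finerenone and 22.6% and 10.7% in Spironolactone. Both Finerenone values lay below both Spironolactone values, as did those of iPT, DCT and fibroblasts, while those of PCT and PC lay above, so that the groups did not overlap for 6 of 12 labels (50.0%). DOCA had 10.1% and 9.79%, Control 8.77% and 8.82% and Amiloride 3.01%. In limma's fit the log2 odds were lower in Finerenone by 2.26 (a difference of -2.26 ± 0.42 SE, 95% interval -3.37 to -1.15, adjusted p = 0.0440), which made Mac 1 of 12 labels called (8.33%). Nuclei with most neighbours of another label were 1 of 37 and 0 of 66 in Finerenone, and 7 of 38 and 23 of 407 in Spironolactone. A count of 0 of 66 has an exact Clopper-Pearson interval of 0% to 5.44%, and a floor of 3 counts in 66 is 4.55%. In all 4 libraries most of those neighbours carried tubular labels. PST and PCT were 8.60% and 3.86% of all neighbours in the Spironolactone scATAC library and 2.78% and 2.31% in the Spironolactone Multiome library, against 1.08% and 2.70% and 1.21% and 0.505% in Finerenone. No doublet caller was run, and the part of droplets with more than 1 nucleus in this difference was not tested. The call did not hold without any single Control, DOCA, Finerenone or Spironolactone library (adjusted p 0.0723 to 0.319), with libraries thinned to equal nuclei (0.226) or without the kit term (0.0574).

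Of the other labels, podocytes had the fewest neighbours of another label, 0.870% and 1.85% in Finerenone and 0.667% and 2.02% in Spironolactone. Their difference of -0.06 (-1.17 to 1.04) stood beside the large difference in their number. PCT had 9.08% and 9.26% in Finerenone against 7.44% and 7.79% in Spironolactone and did not pass the test (0.29, -0.24 to 0.83, adjusted p = 0.513). MyoFib had the highest values, 63.0% and 18.6% against 37.0% and 18.9%, on 9 to 44 nuclei.

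**Figure D5:**
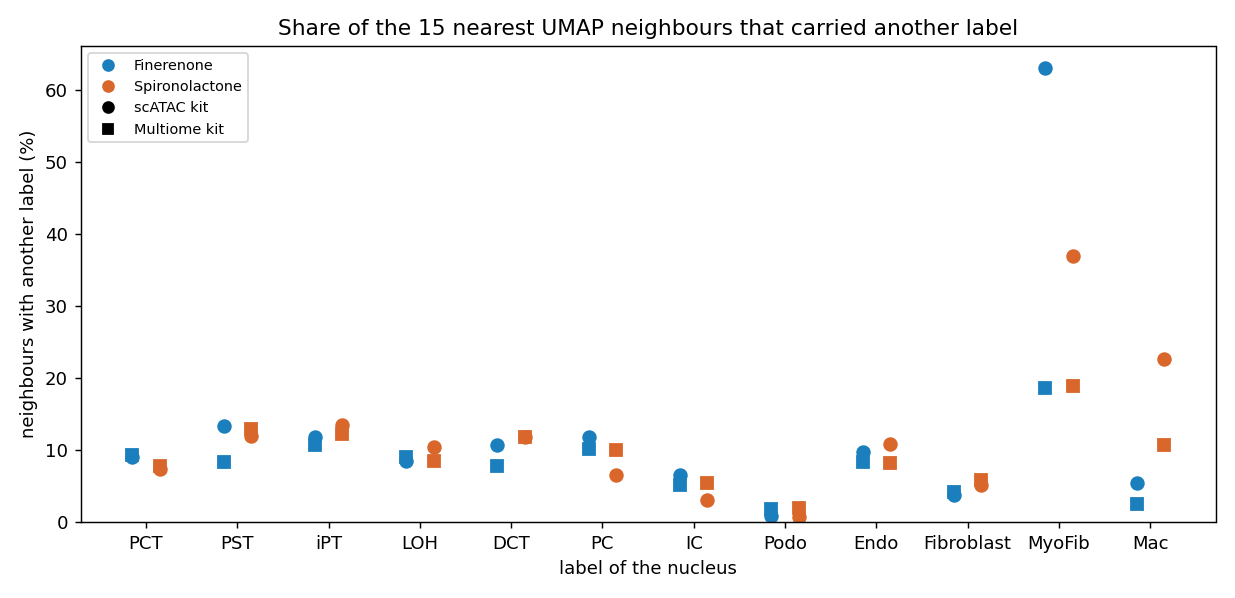
Share of the 15 nearest UMAP neighbours that carried another label (y axis, %), for each label (x axis) in the Finerenone and Spironolactone libraries, with circles for scATAC and squares for Multiome. The Mac values of Finerenone (5.41% and 2.53%) lie below those of Spironolactone (22.6% and 10.7%), and MyoFib is the highest label in each of the 4 libraries.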

How the data were processed

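Nuclei of whole rat kidneys were profiled by snATAC-Seq in 9 libraries. The authors aligned reads with Cell Ranger ATAC (1.1.0 in the submitters' processing notes) to rn6, filtered nuclei by quality, merged them in Signac (1.3.0), corrected batches with Harmony, clustered them and gave clusters cell type names by the accessibility of marker genes. Losses in those filters are part of every share. The deposited metadata hold names (library, treatment, cell type) and the deposited UMAP coordinates are a score without unit, computed by the authors after batch correction. The study's supplement counts more merged data sets than the 9 of its main text, so it is unclear whether further libraries shaped the map.

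Groups came from the labels. Kits were assigned from shared barcodes, since kits use different barcode lists. Nuclei were counted per library (1817 to 15235), which sets the width of the counting intervals. Counting intervals were Clopper-Pearson (shares) or Woolf (differences) at 95% and cover counting error only. Log2 odds with an offset of 0.5 were fitted with limma 3.58.1 in R 4.3.3 on group and kit over all 9 libraries, with Benjamini-Hochberg adjustment within each fit. The authors compared fractions by a chi-square test, which was not used here, since libraries were taken as the replicates. An exact permutation of 2 against 2 libraries within kits cannot go below p = 0.5. Placement used medians of labels with at least 10 nuclei, neighbours were the 15 nearest on the UMAP (scipy 1.17.1), and sub-regions were 3 k-means groups per label (scikit-learn 1.9.0). No doublets were removed here. Only the composition fit was tested on simulated counts, with the same spread for every label. The placement, neighbour, sub-region and mixing steps were not simulated. All 12 labels are described, with full values for those past the threshold and for iPT, PST, PCT, Podo, Mac and PC. The comparison, labels and compartments were chosen with earlier results of these data known, and the higher podocyte share was among those results. Peaks and gene activities were not analysed here.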

Additional observations from a re-analysis of the deposited data

Results flagged for a closer look

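Results are given here where the 2 kits differed most plainly in direction, which was not tested as a difference, since each drug had 1 library per kit. For shares these are the 2 labels whose counting intervals lay on opposite sides of 0, of 5 labels with opposite signs. For placement they are the 4 labels with over 150 degrees between the displacements, of 8 with over 90 degrees. The PST share was lower in Finerenone by 0.43 with the scATAC kit (a difference of -0.43 log2 odds) and higher by 0.42 with the Multiome kit. The Endo share differed by -1.34 and 0.27. On the UMAP the displacement from Spironolactone to Finerenone was turned by 174 degrees between kits for PST, 174 for DCT, 153 for LOH and 150 for iPT. Kit, animal and library cannot be told apart in these pairs.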

How the results depend on the processing

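Podocytes stayed higher in Finerenone under all alternatives. They were the 1 feature called, except that the count was 0 on the arcsine scale (0.188, adjusted p = 0.0670), 2 with 4 compartments, where Endo is the mirror of Podo (-2.29), and 0 to 1 without single libraries (1.71 to 2.43). For neighbours with another label the count was 0 to 1 without single libraries, 0 without the kit term (Mac -2.26, adjusted p = 0.0574) and 0 with thinned libraries (Mac -2.52, adjusted p = 0.226), and the Mac value ran from -2.71 to -1.82 without single libraries. Placement and sub-regions gave 0 calls throughout. Some differences that did not pass the test changed sign. With libraries thinned these were PST (0.017) and PC (0.10), on the arcsine scale PST (0.00052), as shares of all nuclei PC (0.29) and Endo (0.0060), as centred log-ratios PC (0.11), fibroblasts (-0.072) and MyoFib (-0.0059), and with mean coordinates DCT UMAP_2 (0.079) and LOH UMAP_1 (0.0043). Without single libraries the range crossed 0 for PST (-0.51 to 0.49), iPT (-0.52 to 2.19), PC (-0.20 to 0.13), Endo (-1.16 to 0.086), Mac (-1.89 to 0.11), the distal compartment (-0.050 to 0.80), and for PST UMAP_2 (-0.86 to 1.09), DCT UMAP_2 (-0.90 to 0.55), PCT UMAP_2 (-0.13 to 0.42), iPT UMAP_1 (-1.13 to 0.59) and LOH UMAP_1 (-0.65 to 0.34). The cause of these changes was not tested. The kit pairs 1 Finerenone with 1 Spironolactone library. With the 4 drug libraries alone and the kit in the fit, Podo was again the 1 call (adjusted p = 0.0212), and without the kit term likewise (0.0177). Counts of 9 to 38 nuclei limit Podo, MyoFib and Mac in the scATAC libraries of both drugs.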
